A study of Mus musculus with 28 samples.

Results

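The mRNAs described here encode the proteins of the mitochondrial ribosome, measured in synaptosomes, nerve terminals torn off with adhering postsynaptic membrane, from mouse brain. Members were taken by symbol, Mrpl or Mrps followed by a number and at most 1 letter, which gave 78 members (49 named for the large subunit and 29 for the small) among 25239 gene symbols in the SynSURF table. The sucrose table held 77 members among 24443 symbols, 48 large and 29 small, and lists Mrpl58 under its older symbol Ict1. The groups compared were 10 sorted and 10 crude SynSURF libraries, in which particles held by a reversible fixative were sorted, and 3 sorted and 3 crude libraries made for a sucrose gradient. Per the labels, all came from brain, sorted particles were suspended in TCEP (a reducing agent) and crude pellets, with fewer particles, in PBS, and all RNA was amplified as cDNA before sequencing. The labels give no strain, age or sex, and nothing ties a replicate to an animal of its own. The spread behind every p-value is therefore that between libraries, and may be technical. The number of particles, the buffer and the sorting differ together between sorted and crude samples and cannot be told apart.

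Mitochondria carry their own ribosome, which makes the few membrane proteins of the respiratory chain that mitochondrial DNA encodes. Its RNA comes from mitochondrial DNA, but all of its proteins are encoded in the nucleus, translated in the cytosol and imported, so that their mRNAs can be read from poly(A) libraries. Part of the proteins have bacterial counterparts, and the rest, such as Mrpl40, Mrpl46, Mrpl53 and Mrps34, are particular to mitochondria. In mammalian structures the products of Mrps30 and Mrps18a lie in the large subunit in spite of their names, and the product of Mrps36 is now assigned to the 2-oxoglutarate dehydrogenase complex of the citric acid cycle. Subunits here follow the symbols.

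The genes of the members lay on 17 chromosomes, and some of their promoters held short motifs in common. RefSeq (GRCm38.p6) gave 75 windows, from 250 bases before to 50 after a start, for 69 members. The letters CCGGAAG, read on both strands and typical of ETS factors, were in 34.7% of these windows, in 11.5% of those of all genes in the SynSURF table and in 33.3% of those of cytosolic ribosomal protein genes. The letters GCGCATG, from the binding site of the nuclear respiratory factor NRF1, were in 10.7% of the members' windows, 4.84% of those of all genes in the table and 11.1% of those of cytosolic ribosomal protein genes. A longer NRF1 form with 1 open position, which can overlap the shorter one, was in 17.3% of the members' windows, 6.32% of those of all genes in the table and 7.41% of those of cytosolic ribosomal protein genes. The shorter form was chosen after the shares of the longer one had been seen. The letters GGGCGG, bound by SP factors, were in 52% of the members' windows, 45.9% of those of all genes in the table and 58.0% of those of cytosolic ribosomal protein genes. A TATAAA was in 6.67% of the members' windows, 12.3% of those of all genes in the table and 9.88% of those of cytosolic ribosomal protein genes. Such a match is a description and not a site. The 250 bases before the start are shown for Mrpl3, the most abundant member in crude SynSURF libraries, for Mrpl10, the member seen in most sorted libraries, for Mrps18b, seen in 1 of them, and for Mrps11, seen in none, whose window overlaps that of Mrpl46 on the opposite strand. Capitals mark CCGGAAG or GCGCATG on either strand, and Mrps11 has neither.
Mrpl3, chr9:105053018-105053267, plus strand: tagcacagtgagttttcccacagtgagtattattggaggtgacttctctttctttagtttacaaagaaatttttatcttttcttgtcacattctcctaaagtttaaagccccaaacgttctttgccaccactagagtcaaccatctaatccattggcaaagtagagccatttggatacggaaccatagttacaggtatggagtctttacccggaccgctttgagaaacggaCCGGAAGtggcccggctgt
Mrpl10, chr11:97041332-97041581, plus strand: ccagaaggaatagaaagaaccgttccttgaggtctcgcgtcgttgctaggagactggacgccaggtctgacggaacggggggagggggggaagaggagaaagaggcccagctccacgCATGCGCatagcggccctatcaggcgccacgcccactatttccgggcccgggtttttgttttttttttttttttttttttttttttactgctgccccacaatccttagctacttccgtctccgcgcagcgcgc
Mrps18b, chr17:35916441-35916690, minus strand: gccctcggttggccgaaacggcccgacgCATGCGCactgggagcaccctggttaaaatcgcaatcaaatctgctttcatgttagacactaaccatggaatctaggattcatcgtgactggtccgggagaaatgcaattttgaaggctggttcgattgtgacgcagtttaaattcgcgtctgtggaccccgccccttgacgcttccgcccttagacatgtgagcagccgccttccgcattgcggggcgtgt
Mrps11, chr7:78782881-78783130, plus strand: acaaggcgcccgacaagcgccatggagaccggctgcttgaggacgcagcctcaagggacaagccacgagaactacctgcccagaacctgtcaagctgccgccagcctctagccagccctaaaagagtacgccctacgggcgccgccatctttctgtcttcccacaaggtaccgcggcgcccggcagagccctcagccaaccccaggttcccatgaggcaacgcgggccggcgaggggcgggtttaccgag

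The libraries differed widely in depth, which bears on every SynSURF value of these mRNAs. SynSURF sorted libraries held 76520 to 325117 counts, apart from replicate 1 with 1812759, and crude ones 1035423 to 8897238. Sucrose libraries held 3018604 to 5196050 counts when sorted and 1844679 to 6793374 when crude. Rn45s, the 45S ribosomal RNA unit, took 0.805 to 62.5% of counts in SynSURF sorted libraries and 0.0894 to 0.778% in crude ones. Of the marker lists, 8 neuronal genes had summed shares of 0.103 to 0.776% in sorted and 0.503 to 0.785% in crude SynSURF libraries. The 6 oligodendrocyte genes took 0.780 to 6.72% in sorted and 0.339 to 1.00% in crude libraries, and 6 astrocyte genes took 0.0366 to 0.588% in sorted and 0.701 to 1.62% in crude ones. The 6 microglial genes took 0 to 0.0274% in sorted and 0.00632 to 0.0263% in crude libraries, and of them Cx3cr1 was at 0 in all sorted libraries. The endothelial genes Cldn5, Flt1 and Pecam1 were at 0 in all sorted SynSURF libraries and took 8.06e-05 to 0.00226% in crude ones. Such levels are near or below the 0.00222% that 3 counts make in a sorted library on average, so these zeros show no loss. The part of these differences in the results below was not tested, and fewer particles of a kind cannot be told apart from less RNA per particle.

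In crude SynSURF synaptosomes nearly all members were detected, at graded levels. Together they took 0.279% ± 0.0396 of counts in the 10 crude SynSURF libraries (SD), and 76 of 78 had a count in all 10. In the length-scaled TPM that the authors deposited, mean crude levels ran from 5.63 to 806 TPM with a median of 40.1 TPM. Mrpl3, a core protein near the peptidyl transferase centre, had the highest crude SynSURF level at 806 TPM, followed by Mrps21 at 789, Mrpl53 at 480 and Mrpl2 at 419 TPM. The median member varied by 56.2% (coefficient of variation) between the 10 crude libraries, with a range from 25.2 to 156% over the members. The order of members was close in both crude preparations, with a Spearman correlation of 0.86 over 77 members (mean TPM, a description, since both share gene lengths and counting). In crude sucrose libraries Mrps21 was highest at 1419 TPM, and Mrpl36 had 579 TPM.

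Each SynSURF sorted library held a small subset of these mRNAs, as it did of all genes. A count was found for 12 to 37 members in sorted libraries and for 77 or 78 in crude libraries. Over all genes in the table, 2588 to 6630 had a count in sorted libraries and 12236 to 14701 in crude libraries. On average these were 23 members and 4016 genes in sorted libraries, and 77.8 members and 13497 genes in crude ones. At the deposited depth, detection thus fell to a like degree for the members and for all genes. Depth alone lowers such numbers, so the number expected at an equal total of 76520 counts, the shallowest library, was computed for every library. It was lowest at 6.07 in sorted replicate 4, with a median of 18.2 and a highest value of 29.6 in sorted replicate 2, against 38.4, 51.6 and 56.9 (lowest, median, highest) in crude libraries. All 10 sorted libraries lay below the lowest crude one. The like number over all genes was not computed, so whether this separation is particular to the members was not tested. An equal total is not an equal number of mRNA counts, given the Rn45s shares above. With Rn45s left out and libraries brought to 32095 counts, a reading added after the data were seen, the number was 3.54, 14.4 and 22.8 (lowest, median, highest) in sorted and 24.998, 35.98 and 40.9 in crude libraries, and all 10 sorted libraries again lay below the lowest crude one. At 76520 counts the small subunit had 4.76 ± 2.46 of its 29 members in sorted libraries and 17.1 ± 2.84 in crude ones, and the large subunit 13.5 ± 4.60 of 49 in sorted and 33.1 ± 3.76 in crude ones (SD, n = 10 each). The same reading gave 61.7 ± 8.35 of 90 cytosolic ribosomal protein genes in sorted and 77.1 ± 5.86 in crude libraries, where 4 of 10 sorted libraries lay below the lowest crude one. For 84 nuclear genes of oxidative phosphorylation it gave 40.1 ± 8.18 in sorted and 63.5 ± 7.80 in crude libraries, with 8 of 10 sorted below the lowest crude one. The 3 sets were not matched on level, and cytosolic ribosomal protein genes took 2.98% ± 1.19 of counts in sorted and 2.23% ± 0.723 in crude libraries, well above the members' share given further on.

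**Figure D1:**
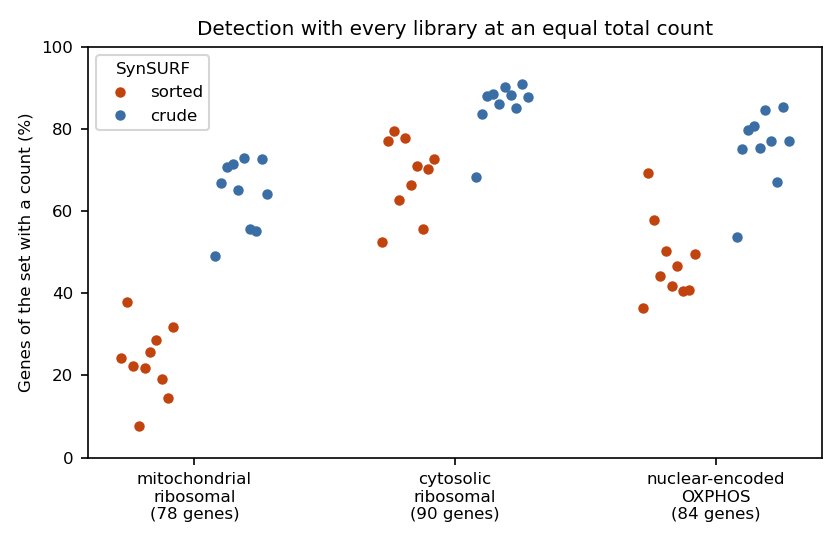
Share of each gene set with a count (%, vertical axis) in SynSURF sorted (left, orange) and crude (right, blue) libraries, 1 point per library, expected at 76520 counts. For the 78 mitochondrial ribosomal protein mRNAs all sorted points lie below all crude points, while the groups overlap for cytosolic ribosomal protein and oxidative phosphorylation genes.

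Which members were seen changed from one sorted library to the next. Over the 10 sorted libraries, 5 members had no count at all, 45 had a count in 1 to 3 libraries, 23 in 4 to 6 and 5 in 7 or more. Mrpl10, which anchors the ribosomal stalk, was seen in 9 sorted libraries, Mrpl48 in 8, and Mrpl2, Mrpl40 and Mrpl53 in 7 each. Of the 73 members seen, 58 had over 50% of their summed sorted CPM (counts scaled to a common total with TMM factors) in 1 library. Those libraries varied, since the highest value fell in replicate 2 for 19 members, in replicate 10 for 13 and in replicate 1 for 10. The Spearman correlation of the number of sorted libraries with a count was 0.63 with crude mean CPM and 0.04 with transcript length, over 78 members. Mean sorted and crude CPM had a correlation of 0.56 over the 78 SynSURF members, and of 0.93 over the 77 sucrose members. These correlations are descriptions over members of the same libraries.

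**Figure D2:**
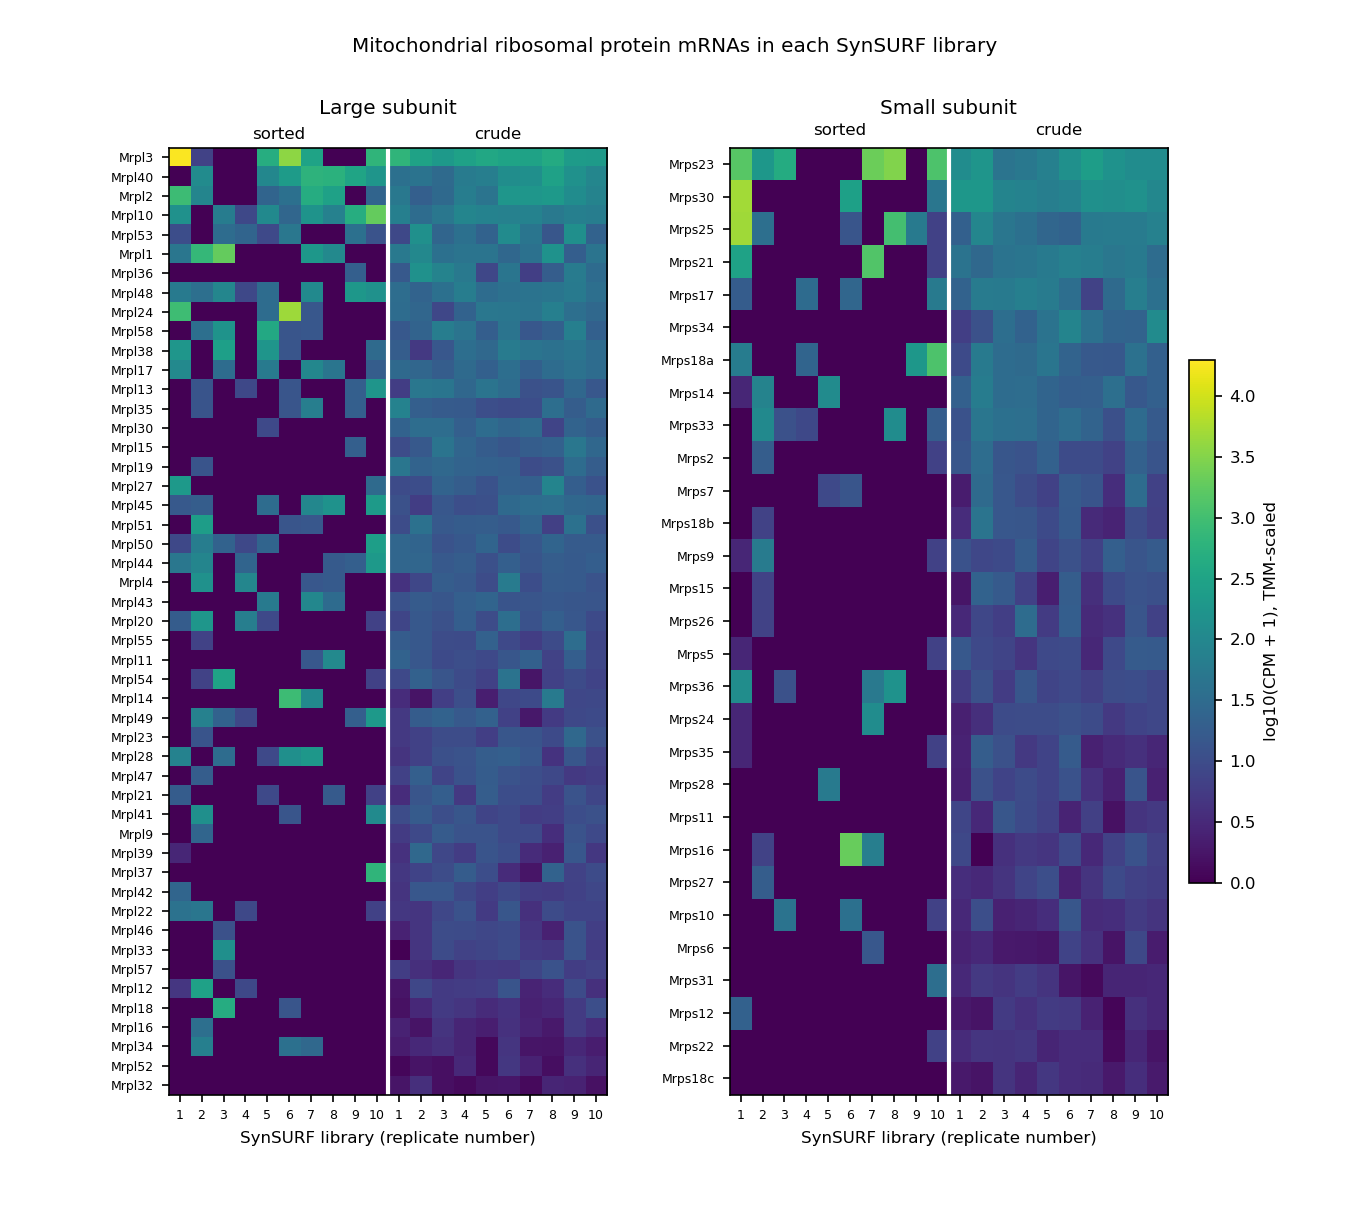
Level of each of the 78 members (rows, ordered by crude mean CPM within subunit) in each SynSURF library (columns, sorted 1 to 10 left, crude 1 to 10 right), as log10 of CPM + 1 on the colour scale. Crude columns are alike, and sorted columns are mostly at 0 with a few high values that sit in different rows.

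The most abundant member differed between sorted libraries. In all 10 crude libraries it was Mrpl3, with 9.86 to 34.2% of the members' counts. In sorted libraries it was Mrpl3 in replicates 1 and 5, Mrpl1 of the other stalk of the large subunit in replicates 2 and 3, Mrpl4 in replicate 4 and Mrpl24, whose bacterial counterpart starts subunit assembly, in replicate 6. Mrps23, a small subunit protein particular to mitochondria, led in replicates 7 and 8, and Mrpl10 in replicates 9 and 10. The leading member took 24.1 to 55.9% of the members' counts in sorted libraries. It had 12 to 10062 counts in sorted and 419 to 3346 in crude libraries. In sorted replicate 4 it had 12 of 42 member counts, and in sorted replicate 9 it had 25 of 73. How far such low counts change which member leads was not tested. The 3 leading places were filled by 20 different members over the sorted libraries and by 8 over the crude ones, against 5 over the 3 sorted and 6 over the 3 crude sucrose libraries. The effective number of members, the inverse of the summed squared shares, was 2.78 to 10.7 in sorted and 7.16 to 28.2 in crude SynSURF libraries, and 9 of 10 sorted libraries lay below the lowest crude one.

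The summed share did not separate the groups in SynSURF. The 78 members took 0.438% ± 0.346 of counts in sorted libraries and 0.279% ± 0.0396 in crude ones (SD, n = 10 each). It was 0.0129% in sorted replicate 4 (95% Wilson interval 0.00956 to 0.0175%) and 0.996% in sorted replicate 6 (0.936 to 1.06%), intervals that cover counting error only, since amplified reads are not independent molecules. Of the sorted libraries, 5 lay above the highest crude value of 0.346% and 3 below the lowest of 0.223%, so that the crude range sits inside the sorted one. The large subunit took 0.285% ± 0.256 in sorted and 0.189% ± 0.0291 in crude libraries, and the small subunit 0.152% ± 0.146 in sorted and 0.0901% ± 0.0193 in crude ones. For the small subunit every sorted library fell outside the crude range, 5 above it and 5 below. The totals behind these shares include Rn45s, up to 62.5% of counts in a sorted library, and positions against the crude range were not recomputed without it.

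**Figure D3:**
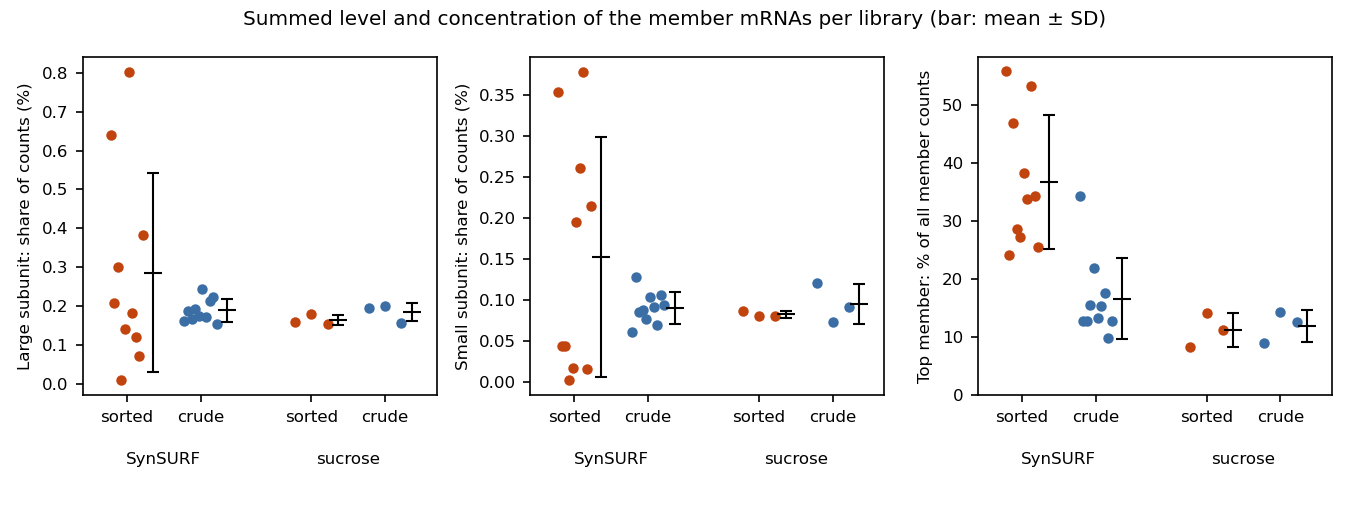
Summed share of counts of large subunit members (%, left), of small subunit members (%, middle) and share of the members' counts in the most abundant member (%, right), 1 point per library with mean and SD beside it, for SynSURF and sucrose libraries, sorted left of crude. SynSURF sorted libraries spread from 0.0105 to 0.801% for the large subunit against 0.154 to 0.243% in crude ones, and sucrose groups lie close together.

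The first comparison set the members of sorted SynSURF synaptosomes against those of crude ones. edgeR's quasi-likelihood test could be run on 39 of the 78 members (28 large, 11 small) after its filter on low counts, which asked for at least 8.34 CPM by plain library totals in at least 10 libraries. A member with no sorted library at that level therefore had to reach it in all 10 crude ones. Mrps34 and Mrpl30 reached it in 9 crude libraries and in no sorted one and were set aside, though their crude medians were above that of Mrpl15, which was tested. At a Benjamini-Hochberg adjusted p under 0.05, 6 members rose and 4 fell (15.4% and 10.3% of those tested), while over all 6598 genes tested 7.62% rose and 22.1% fell. The median log2 fold change of the 39 members that passed the filter was 0.90, against -0.18 over all genes tested. The large subunit had 3 higher and 3 lower, and the small subunit 3 higher and 1 lower. With plain library totals instead of TMM factors the median of all genes moved to -1.28 and that of the members to 0.03, and the test then called 0 members higher and 7 lower (17.9% of 39), against 1.52% higher and 39.3% lower over all genes. TMM factors averaged 0.729 in sorted and 1.45 in crude libraries. Without the filter the median was 0.05 over all 78 members and -1.39 over all genes. The DESeq2 Wald test gave medians of -0.40 for the members and 0.07 for all genes. With the replicate number as a block the medians were -1.50 for the members and -1.97 for all genes. That block called 0 members higher and 9 lower (23.1% of 39), against 0.561% higher and 40% lower over all genes.

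The 4 members that fell were nearly absent from sorted libraries. Mrpl15, a core large subunit protein encoded on chromosome 1, had 1 count over all sorted libraries, in replicate 9 (19.1 CPM, 0 in the other 9), against 9.14, 19.1 and 49.4 CPM (lowest, median, highest) in crude libraries (log2 fold change -4.96 ± 0.87 SE, edgeR adjusted p = 8.3e-05). Pooled over libraries its sorted level was 0.0284 of the crude level, with an exact 95% counting interval of 0.000718 to 0.158. Such intervals of pooled ratios cover counting error only and not the spread between libraries. Mrpl36, a small protein that joins the subunit late, also had 1 count, in replicate 9, against 5.23, 38.3 and 151 CPM in crude libraries. Its log2 fold change was -5.87 ± 1.09 (edgeR adjusted p = 0.00016), and its pooled ratio 0.0192 (0.000487 to 0.107). The groups overlap for both genes in that single sorted library.

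Mrpl19, a large subunit protein on chromosome 6, had 2 counts, both in sorted replicate 2 (11.9 CPM), against 8.90, 21.2 and 46.9 CPM in crude libraries (log2 fold change -3.98 ± 0.76, edgeR adjusted p = 0.00021). The pooled ratio was 0.0634 (0.00767 to 0.229). Part of its annotated exons, 1962 bases, overlap Gcfc2 on the other strand, and without a stated strand setting reads of such pairs cannot be told apart. Mrps2, a core small subunit protein, was seen in 2 sorted libraries with 17.9 CPM in replicate 2 and 5.88 CPM in replicate 10, against 5.97, 12.4 and 33.4 CPM in crude libraries (-2.34 ± 0.70, edgeR adjusted p = 0.0135). All 4 calls held when any 1 library was left out, and with plain library totals. Without sorted replicates 1 and 4 together Mrps2 lost its call (-1.73, edgeR adjusted p = 0.0541). With crude libraries thinned to sorted totals, 5 members could be tested and 0 were called lower.

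The 6 members that rose did so through a few sorted libraries each. Mrpl10, on chromosome 11, had 0, 93.6 and 1948 CPM (lowest, median, highest) in sorted and 31.96, 71.0 and 90.3 CPM in crude libraries, with 5 of 10 sorted libraries above the highest crude one and 3 below the lowest (log2 fold change 2.18 ± 0.83, edgeR adjusted p = 0.0485). Without sorted replicate 10 its log2 fold change was 0.76, and the call was lost in 12 of the 20 settings that leave out 1 library. Mrps23, also on chromosome 11, had 0, 314 and 3095 CPM in sorted and 44.2, 121 and 242 CPM in crude libraries (2.80 ± 1.00, edgeR adjusted p = 0.0349). Its sorted libraries split into 5 above the highest crude value, 4 at 0 and 1 between.

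Mrpl24, on chromosome 3, had 4677 CPM in sorted replicate 6 and 936 CPM in replicate 1, 31.7 and 13.7 CPM in replicates 5 and 7 and 0 in the other 6, against 7.20, 34.2 and 71.4 CPM in crude libraries (3.95 ± 1.30, edgeR adjusted p = 0.0233). Without replicate 6 the log2 fold change was 1.63 and the call was lost. Mrps25, a small subunit protein on chromosome 6, had 0, 9.26 and 4796 CPM in sorted and 19.4, 53.6 and 91.6 CPM in crude libraries (3.58 ± 1.21, edgeR adjusted p = 0.0272), so that its median was lower in sorted libraries than in crude ones. Without sorted replicate 1, which held 80.7% of its sorted CPM, the log2 fold change was 1.31 and the call was lost. The DESeq2 Wald test called neither Mrpl24 (0.76, DESeq2 adjusted p = 0.605) nor Mrps25 (1.44, DESeq2 adjusted p = 0.264). Exons of Mrps25 share 4590 bases with Nr2c2 and those of Mrpl24 594 bases with Rrnad1, in both cases on the opposite strand.

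Mrpl28, on chromosome 17, had 0, 3.96 and 191 CPM in sorted and 3.20, 10.9 and 19.4 CPM in crude libraries, with 4 of 10 sorted above the highest crude one (2.08 ± 0.79, edgeR adjusted p = 0.0471). Mrps36, the dehydrogenase-associated protein, had 0, 0 and 152 CPM in sorted and 4.67, 7.64 and 13.03 CPM in crude libraries (2.15 ± 0.74, edgeR adjusted p = 0.0299). Of the 20 settings that leave out 1 library, Mrpl28 lost its call in 13 and Mrps23 in 10. Mrps36 lost it in 5 of the 14 in which it could be tested, and did not pass the filter in the other 6. With plain library totals the 6 log2 fold changes were 0.79 (Mrps36) to 3.03 (Mrpl24), all short of the threshold. Mrpl28 and Mrps36 each reached the filter level in 7 crude libraries, and passed the filter only with 4 sorted ones. Fitted without that filter, Mrpl28 (edgeR adjusted p = 0.115), Mrps36 (0.0870), Mrpl10 (0.0911) and Mrps23 (0.0588) lost their calls. Mrpl24 (0.0363) and Mrps25 (0.0408) kept theirs. For each of these 6 members, sorted libraries lay both above the highest and below the lowest crude one.

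**Figure D4:**
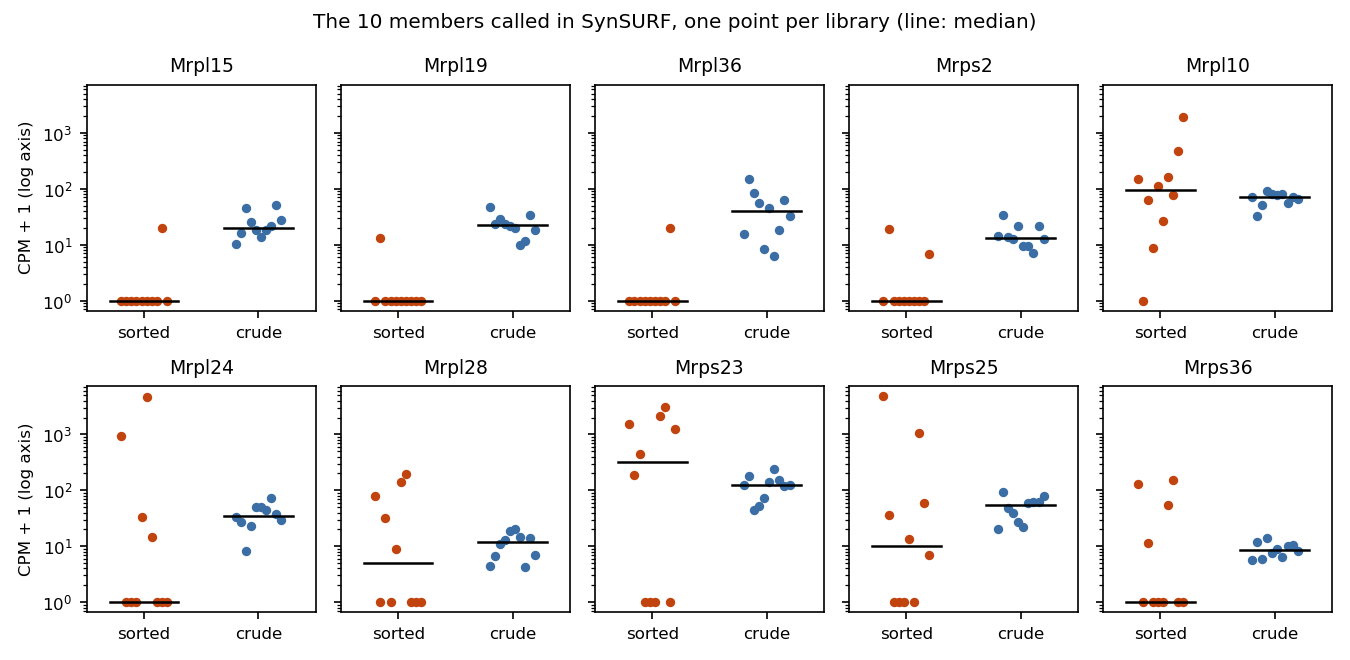
CPM + 1 (log axis) of the 10 members called in SynSURF, 1 point per library, sorted left and crude right, with the median as a line. The 4 members that fell (Mrpl15, Mrpl19, Mrpl36, Mrps2) have 1 or 2 sorted libraries above 0, and the 6 that rose have sorted libraries both above and below the crude range.

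The remaining 29 tested members were not called. Mrpl3 itself had 0, 160 and 18609 CPM in sorted and 209, 301 and 651 CPM in crude libraries (2.84 ± 1.17, edgeR adjusted p = 0.0677). Sorted replicate 1 held 78.5% of its sorted CPM, with 10062 counts, and without that replicate the value was 0.78, while without sorted replicate 2, 3, 4, 8 or 9 Mrpl3 passed the threshold (2.94 to 2.97, edgeR adjusted p = 0.0393 to 0.0442). Mrps30 had 4975 CPM in sorted replicate 1 and 0 in 7 of the sorted libraries, against 68.1, 116 and 188 CPM in crude ones (2.15 ± 1.21, edgeR adjusted p = 0.185), and without replicate 1 its sign turned, to -1.75. Mrps21, of high level per length, had 1338 CPM in sorted replicate 7, 294 in replicate 1, 5.88 in replicate 10 and 0 elsewhere, against 26.99, 48.3 and 74.1 CPM in crude libraries (1.72 ± 1.09). Mrpl53 had 0, 10.5 and 50.6 CPM in sorted and 7.58, 31.03 and 143 CPM in crude libraries (-1.82 ± 0.76, edgeR adjusted p = 0.0705), and passed the threshold without sorted replicate 3, 6 or 9 (-2.20 to -2.02, edgeR adjusted p = 0.0317 to 0.0492). The widely detected Mrpl48 (0.69 ± 0.65), Mrpl40 (1.00 ± 0.85) and Mrpl2 (0.89 ± 0.88) and the small subunit Mrps33 (-0.04 ± 0.76) also stayed short of the threshold.

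Among the 39 members that could not be tested were the 5 with no count in any sorted library. Mrps34, a small subunit protein needed for stable small subunits, had 0 in all 10 sorted libraries and 5.25, 28.7 and 116 CPM in crude ones. With 3 counts over the sorted group as a floor (2.00 CPM), its pooled crude level of 53.8 CPM was 26.9-fold higher. With plain library totals it was 77.7-fold higher. Of its 3148 crude counts, 1486 were in replicate 10. Such folds of pooled counts cover counting error only and not the spread between libraries. Fitted without the filter on low counts, Mrps34 was called lower (edgeR adjusted p = 0.000202), as was Mrpl30 (edgeR adjusted p = 7.23e-05). Exons of Mrps34 share 1309 bases with Mapk8ip3 on the opposite strand and 763 with Nme3 on the same strand. Mrps11, a core protein of the decoding subunit, had 0 in sorted and 0.556, 4.85 and 12.96 CPM in crude libraries. Its pooled crude level was 2.15-fold above the same floor. Mrpl32, Mrpl52 and Mrps18c were also at 0 in sorted libraries, but their pooled crude levels of 0.905 to 1.88 CPM lay under that floor and give no fold. A further 19 members, tested or not, had 1 to 3 counts over the sorted libraries.

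The 3 paralogs of bacterial S18 differed in how they appeared. Mrps18a had 1259 CPM in sorted replicate 10, 191 in replicate 9, 62.9 in replicate 1, 22.8 in replicate 4 and 0 elsewhere, against 8.17, 26.2 and 55.4 CPM in crude libraries (2.46 ± 1.06, edgeR adjusted p = 0.0798). Mrps18b had 1 sorted count, in replicate 2, against 1.67, 8.75 and 44.7 CPM in crude libraries. Mrps18c had no sorted count, against 0.710, 2.02 and 3.90 CPM in crude libraries. In sucrose libraries Mrps18a had mean levels of 132 TPM in sorted and 132 TPM in crude libraries, above Mrps18b (48.8 TPM sorted, 40.3 TPM crude) and Mrps18c (19.003 TPM sorted, 13.8 TPM crude).

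The second comparison asked the same of the sucrose preparation, where all 77 members had a count in all 6 libraries. The members took 0.246% ± 0.0125 of counts in sorted and 0.278% ± 0.0332 in crude libraries (SD, n = 3 each), and the groups overlap. Within the replicate numbers, which pair these samples, the share was 0.247% in sorted and 0.314% in crude for replicate 1, 0.258% in sorted and 0.273% in crude for replicate 2, and 0.233% in sorted and 0.248% in crude for replicate 3. Sorted was thus lower in 3 of 3 pairs (exact two-sided sign-flip permutation p = 0.25, the smallest that 3 pairs allow). The large subunit took 0.164% ± 0.0126 in sorted and 0.184% ± 0.0235 in crude libraries, lower in 3 of 3 pairs, and the small subunit 0.0822% ± 0.00401 in sorted and 0.0946% ± 0.0240 in crude ones, lower in 2 of 3 (exact p = 0.25 for the large and 0.5 for the small subunit, unadjusted over these 3 shares). Of 74 members tested, edgeR called 0 in either direction, the same as the 0% of 10589 genes called over the whole table, and 0 members had an unadjusted p under 0.05, against 324 of all genes. DESeq2 also called 0 members. Their median log2 fold change was -0.05, that of all genes -0.04. Values ran from -1.23 ± 0.68 for Mrpl36 to 0.97 ± 0.53 for Mrpl1.

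Mrpl36 had 132, 16.3 and 103 CPM in sorted and 274, 77.1 and 241 CPM in crude sucrose libraries of replicates 1, 2 and 3, lower in each sorted library than in the crude one of its number, with groups that overlap (unadjusted p = 0.0966, edgeR adjusted p = 0.999). Mrpl1 had 50.1, 43.1 and 116 CPM in sorted and 20.2, 36.1 and 50.5 CPM in crude libraries, again with overlap. Mrpl3 was the most abundant member in all 3 sorted and in 2 of the crude sucrose libraries, with 195, 371 and 275 CPM in sorted and 195, 390 and 329 CPM in crude ones.

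**Figure D5:**
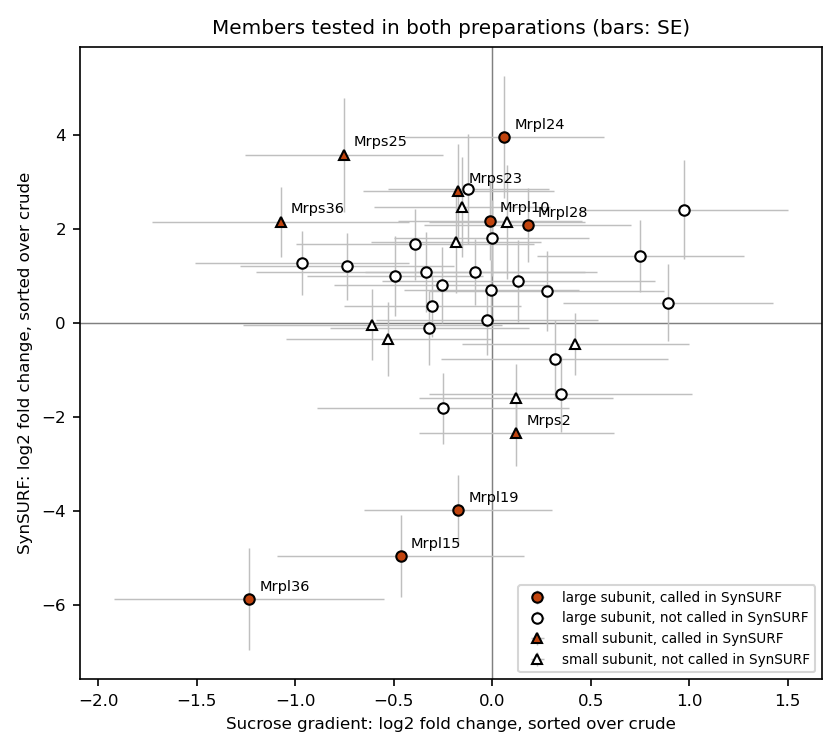
Log2 fold change of sorted over crude in SynSURF (vertical) against the sucrose preparation (horizontal) for members tested in both, circles for the large and triangles for the small subunit, filled where called in SynSURF, bars showing SE. SynSURF values run from -5.87 (Mrpl36) to 3.95 (Mrpl24) and sucrose values from -1.23 to 0.97.

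The third comparison tested the difference itself, the SynSURF log2 fold change minus the sucrose one, in 1 edgeR fit of all 26 libraries. Of 75 members tested, 11 were lower (14.7%) and 0 higher, against 17.3% lower and 0.299% higher over 10713 genes. The median difference was -0.02 for the members and -1.17 for all genes. The lower members were Mrpl15, Mrpl19, Mrpl30, Mrpl36, Mrpl46 and Mrpl55 of the large subunit and Mrps11, Mrps15, Mrps18b, Mrps26 and Mrps34 of the small. Each had 0 to 2 counts over the 10 sorted SynSURF libraries. In the sucrose preparation their log2 fold changes lay between -1.23 (Mrpl36) and 0.88 (Mrps11), with none called. Of the members called higher in SynSURF, Mrpl24 (3.43 ± 2.33) and Mrps25 (4.01 ± 2.27) were not called in this difference (edgeR adjusted p = 0.342 for Mrpl24 and 0.236 for Mrps25).

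Mrpl30, a large subunit protein, had the lowest p of the members, with 7.92 CPM in sorted replicate 5 and 0 in the other SynSURF sorted libraries, against 6.67, 23.5 and 33.4 CPM in crude ones. In sucrose libraries it had 57.1, 35.1 and 46.5 CPM in sorted and 48.8, 24.2 and 50.0004 CPM in crude ones, and the difference between the effects was -5.59 ± 1.13 (edgeR adjusted p = 0.00117). Mrpl55, particular to mitochondria, had 5.96 CPM in sorted replicate 2 only, against 5.10, 8.95 and 34.1 CPM in SynSURF crude libraries, and 10.4, 13.5 and 16.3 CPM in sorted and 18.6, 6.90 and 7.69 CPM in crude sucrose libraries. Its difference was -4.86 ± 1.17 (edgeR adjusted p = 0.0046).

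The head-to-head pair Mrps11 and Mrpl46 on chromosome 7, whose promoter windows overlap, were both among these 11. In SynSURF sorted libraries Mrps11 had 0 and Mrpl46 1 count, in replicate 3 (10.5 CPM), against a crude median of 4.85 CPM for Mrps11 and 6.32 CPM for Mrpl46. In sucrose libraries Mrps11 had 19.2, 18.4 and 8.46 CPM in sorted and 9.55, 6.46 and 9.34 CPM in crude ones, and Mrpl46 22.4, 11.9 and 9.76 CPM in sorted and 19.1, 12.2 and 11.5 CPM in crude ones. The differences were -8.06 ± 2.10 for Mrps11 (edgeR adjusted p = 0.011) and -3.50 ± 1.25 for Mrpl46 (edgeR adjusted p = 0.0494), and the call for Mrpl46 was lost in 21 of the 26 settings that leave out 1 library. With the paired sucrose numbers as a block the call for Mrpl46 was also lost (-3.44, edgeR adjusted p = 0.0591), and the other 10 remained. The genes share 173 exon bases on opposite strands. For Mrps11 and Mrps34 (-9.40 ± 2.19, edgeR adjusted p = 0.00542), which are at 0 in all sorted SynSURF libraries, the fitted size depends on the small count the fit adds and is no bound.

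The other 3 small subunit members in that list were each seen once, in sorted replicate 2, at 5.96 CPM. Mrps15 had 0.778, 9.38 and 21.3 CPM in SynSURF crude libraries and a difference of -4.13 ± 1.41 (edgeR adjusted p = 0.0398). Mrps18b differed by -4.55 ± 1.42 (edgeR adjusted p = 0.0256). Mrps26, particular to mitochondria, had 2.14, 5.56 and 32.7 CPM in SynSURF crude libraries, 10.4, 29.8 and 6.83 CPM in sorted and 26.5, 4.99 and 3.30 CPM in crude sucrose libraries, and a difference of -4.53 ± 1.51 (edgeR adjusted p = 0.0366). Leaving out 1 library ended the call of Mrps15 in 11, of Mrps26 in 6, of Mrpl36 in 5 and of Mrps18b in 3 of 26 settings.

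Of 21 tested genes in 5 lists of other nuclear genes of mitochondrial translation, 2 rose and 5 fell in SynSURF (33.3% called, against 29.7% of all genes tested). Of 4 tested ribosomal proteins with other symbols, 1 fell, Chchd1, with 4.57 ± 8.74 CPM in sorted and 41.5 ± 23.2 in crude libraries (log2 fold change -3.43 ± 0.77, edgeR adjusted p = 0.00123). Of 6 tested assembly factors 3 fell, namely Fastkd2 (-3.46), which binds the RNA of the large subunit, Mterf3 (-3.60) and Nsun4 (-2.03), and 0 rose. Of 7 tested genes of mitochondrial RNA synthesis and stability, 1 fell, Pnpt1 (-3.02), an exoribonuclease. Of 17 aminoacyl-tRNA synthetases in the SynSURF table only 2 could be tested. Both rose, Iars2 (3.38 ± 1.08, edgeR adjusted p = 0.0189) and Lars2 (5.26 ± 1.02, edgeR adjusted p = 0.00026). Iars2 had 229 ± 436 CPM (SD) in sorted libraries, with a count in 5 of them. Lars2 had 5534 ± 10718 CPM, with a count in all 10. In the difference between preparations, edgeR called 3 of 16 tested synthetases lower and 0 higher. Their median difference was -5.24, against -1.17 over all genes. Neither of 2 tested translation factors was called in SynSURF. In the sucrose preparation edgeR called 0 genes of these lists.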

How the data were processed

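Per the labels' protocols, RNA was extracted and amplified by a whole-transcriptome single cell kit (Repli-g) before library construction. The authors deposited estimated counts and TPM per gene symbol, in 1 table for each preparation. For tools and builds, the submitters' processing notes list HISAT2, fastp, GRCm39 and GRCm38, while counting tool, strand setting and build of each table are not given in those notes. Non-whole counts (7278 SynSURF and 4660 sucrose values, some of Mrpl19, Mrpl24 and Mrps25) were rounded. The 18 other columns of per-sample values and the 2 total RNA libraries were left unused.

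Groups follow the sample titles and were tested in edgeR 4.0.16 under R 4.3.3 (quasi-likelihood test, TMM, filterByExpr, group only, Benjamini-Hochberg over all genes tested), after a trial on simulated data. The difference was a contrast in 1 fit over the 23466 symbols in both tables. DESeq2 1.42.0, other scalings and filters, a replicate block and leaving out libraries were alternatives. Counts at an equal total are expectations under random thinning. Exon overlaps come from GENCODE M21 on GRCm38. Cytosolic ribosomal protein genes exclude the Rps6k kinases. Sucrose libraries of 1 number deviated together (correlations 0.338 to 0.487 over 3 pairs), so those numbers pair the samples. As a block they changed no member's call within sucrose and 1 in the difference.

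Named members were those called in any comparison, the 4 of each subunit highest in sucrose crude TPM, the 3 of each seen in most sorted libraries and the Mrps18 paralogs. Library-leading members, members at 0 and Mrpl1 were added after their values were seen. Members, lists and markers were chosen with earlier results of these data known.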

Additional observations from a re-analysis of the deposited data

Results flagged for a closer look

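Among 62 sets of 10 libraries examined for the 28 named members and the summed measures, 24 had an extreme library farther from the rest than Dixon's 95% limit allows, 18 sorted and 6 crude. Chance gives about 1 in 20 such flags, and sets with 9 values at 0 are flagged by 1 count.

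In SynSURF sorted libraries the high values were those of replicate 1 for Mrpl3 (18609 CPM), Mrps30 (4975 CPM), Mrps25 (4796 CPM) and Mrpl2 (869 CPM), of replicate 6 for Mrpl24 (4677 CPM), of replicate 7 for Mrps21 (1338 CPM) and of replicate 10 for Mrpl10 (1948 CPM) and Mrps18a (1259 CPM). Members with 1 or 2 libraries above 0 were Mrpl15 and Mrpl36 in replicate 9 (19.1 CPM each), Mrpl30 in replicate 5 (7.92 CPM), Mrpl46 in replicate 3 (10.5 CPM), and in replicate 2 Mrpl19 (11.9 CPM), Mrps2 (17.9 CPM) and Mrpl55, Mrps15, Mrps18b and Mrps26 (5.96 CPM each). Replicate 1 was also the deepest sorted library, and without it the members' summed share averaged 0.376% over 9 sorted libraries.

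In SynSURF crude libraries the high values were Mrpl3 in replicate 1 (651 CPM), Mrpl36 and Mrps18b in replicate 2 (151 and 44.7 CPM), Mrps26 in replicate 4 (32.7 CPM), Mrpl40 in replicate 8 (289 CPM) and Mrpl55 in replicate 9 (34.1 CPM).

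The sorted over crude effect differed between SynSURF and sucrose by edgeR's test (adjusted p under 0.05) for 11 of 75 members, 14.7% against 17.3% lower over all genes tested, by -3.50 (Mrpl46), -4.13 (Mrps15), -4.20 (Mrpl19), -4.53 (Mrps26), -4.55 (Mrps18b), -4.86 (Mrpl55), -4.88 (Mrpl15), -5.04 (Mrpl36), -5.59 (Mrpl30), -8.06 (Mrps11) and -9.40 (Mrps34) on the log2 scale.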

How the results depend on the processing

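Main SynSURF counts were 3 large and 3 small members higher and 3 large and 1 small lower. DESeq2 size factors gave 1 large higher. Plain library totals gave 0 large and 0 small higher and 5 large and 2 small lower. The DESeq2 Wald test gave 12 large and 8 small lower (25.6% of members, 26.3% of all genes with an adjusted p), no filter 11 and 10 (26.9% of members, 21.4% of all genes), and a mean of at least 5 CPM 9 and 7 (24.6% of members, 27.9% of all genes). Without sorted replicates 1 and 4 together, 8 large and 1 small were higher and 6 large and 2 small lower. After thinning of the crude libraries to sorted totals, 5 members could be tested, with 0 large and 1 small higher and 0 lower in either. Leaving out 1 library gave 1 to 5 large and 1 to 3 small higher, and 3 to 7 large and 1 to 4 small lower. SynSURF replicate numbers did not meet the rule used for pairing, with correlations of 0.0566 to 0.190 that passed 0.1 in 3 of 10 pairs. The own number was nonetheless the best match in 8 of 10, so pairing of these samples cannot be set aside. The replicate block gave 0 large and 0 small higher and 5 small lower, turned the sign of Mrpl24 (-1.78) and Mrps25 (-1.50), and called Mrps21 (-3.22, edgeR adjusted p = 0.0309) and Mrps30 (-3.77, edgeR adjusted p = 0.00716) lower, with turned signs; the median of all genes was then -1.97. The 11 members that differed between preparations became 15 with a block in both preparations, which kept all 11, and 10 with a block of the paired sucrose libraries only (chosen after seeing the data). They became 7 with DESeq2 size factors, 19 with plain totals, 7 without sorted replicates 1 and 4, and 6 to 17 when leaving out 1 library (17 without SynSURF sorted replicate 2; 6 without sucrose sorted replicate 1 or crude replicate 3; 7 without sucrose crude replicate 1). Sorted libraries held 54.8 fewer members than crude ones at deposited depth (difference -54.8), at an equal total the difference was -33.4 to -30.7 when leaving out 1 library, and with Rn45s left out before thinning (chosen after seeing the data) it was -19.9, at 32095 counts. The SynSURF shares, sorted minus crude, were then 0.0392 to 0.127 points (large) and 0.0371 to 0.0788 (small), and the sucrose shares -0.0333 to -0.0115 (large) and -0.0236 to 0.000252 (small). The cause of these shifts was not tested, except that filters change which members are tested and that thinning to fewer counts lowers all numbers. The sucrose calls stayed at 0 members in all settings run. In sorted SynSURF libraries 1 count is 1.85 to 19.1 CPM, against 0.0777 to 0.710 CPM in crude ones.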
